A study of Mus musculus with 32 samples.

Results

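Immediate early genes, the 10 rows named Fos, Fosb, Jun, Junb, Jund, Egr1, Ier2, Dusp1, Atf3 and Klf2 of a table of 33924 genes, were followed over 32 RNA sequencing libraries of mouse LSK and MEP cells. LSK cells are the lineage-negative, Sca1+ Kit+ fraction that holds blood stem cells, and MEP cells are megakaryocyte-erythroid progenitors. Every animal, vehicle animals included, carried Jak2V617F, an activated form of the kinase JAK2 that drives myeloproliferative neoplasms. The allele had been switched on by Dre mRNA in cultured cells, which were then transplanted into recipients given lethal irradiation. Tamoxifen activates Cre in these animals and deletes the allele; ruxolitinib inhibits JAK1 and JAK2 and leaves the allele in place. Batch A held tamoxifen day 3 (4 MEP and 3 LSK libraries), tamoxifen day 7 (3 MEP and 4 LSK) and vehicle A at day 0 (3 MEP and 4 LSK). Batch C held ruxolitinib at day 7 (3 MEP and 3 LSK) and vehicle C at day 0 (3 MEP and 2 LSK). No group without the activated allele was among them, the Cre driver and the share of host cells are not stated in the labels, and a batch is only what the labels call one.

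Immediate early genes are switched on by growth factors, cytokines and stress within minutes and without new protein synthesis, through serum response factor, CREB and the MAP kinases. Fos and Fosb join Jun, Junb or Jund as AP-1 transcription factors, and Egr1 is a zinc-finger factor of the same response that restrains stem cell division in mouse marrow. In blood cells the handling of tissue and cell sorting also induce these genes, so their level is also read as a sign of how a sample was handled.

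Annotation set several of the 10 apart from most expressed genes. On mm10 (GENCODE M21), 4 of the 10 lay on chromosome 8, where a gap of 312 kb separated Ier2 and Junb. Ier2 lay at chr8:84661331-84662852 and Junb at chr8:84974484-84978718, both on the minus strand. Jun, Junb, Jund and Ier2 consist of a single exon, which made 40% of the genes described, against 4.84% of expressed genes. The median GC content of their longest transcripts was 56.6%, against 49.2% over 8363 expressed genes with a value, and Junb, Jund, Ier2 and Klf2 each lay above at least 99.0% of them. RefSeq promoters (GRCm38.p6, 250 bases before to 50 after the start) were found for 8 of the 10, all but Ier2 and Egr1. The short CREB site TGACG, read on both strands, occurred in 6 of the 8, against 21% of 27025 promoters of the same length. The full palindrome TGACGTCA, which contains the short site on both strands, occurred in Dusp1 alone, against 1.88% of promoters. The GC box GGGCGG occurred in 6 of 8 (35.9% of promoters), and the AP-1 site TGANTCA, the STAT site TTCNNNGAA and the CArG box of serum response factor in none of the 8 (7.93%, 8.47% and 1.57%). The 240 bases from 250 to 11 before the start are shown for 4 genes that carry the short site, because Fos and Fosb varied together between LSK libraries while Junb did not follow Fos, and Dusp1 holds the palindrome. They lie at chr12:85473640-85473879 (Fos, plus strand), chr7:19310056-19310295 (Fosb, minus), chr8:84978759-84978998 (Junb, minus) and chr17:26508483-26508722 (Dusp1, minus), and capitals mark the short site on either strand.
Fos: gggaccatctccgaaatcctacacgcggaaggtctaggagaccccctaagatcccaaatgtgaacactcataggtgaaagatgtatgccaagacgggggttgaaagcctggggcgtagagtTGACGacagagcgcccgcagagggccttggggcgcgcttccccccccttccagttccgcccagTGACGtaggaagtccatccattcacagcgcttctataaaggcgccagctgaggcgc
Fosb: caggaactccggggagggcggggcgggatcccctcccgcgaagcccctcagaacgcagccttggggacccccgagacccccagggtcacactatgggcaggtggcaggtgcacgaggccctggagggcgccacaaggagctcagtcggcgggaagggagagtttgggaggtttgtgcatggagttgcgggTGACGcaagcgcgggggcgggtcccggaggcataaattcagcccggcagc
Junb: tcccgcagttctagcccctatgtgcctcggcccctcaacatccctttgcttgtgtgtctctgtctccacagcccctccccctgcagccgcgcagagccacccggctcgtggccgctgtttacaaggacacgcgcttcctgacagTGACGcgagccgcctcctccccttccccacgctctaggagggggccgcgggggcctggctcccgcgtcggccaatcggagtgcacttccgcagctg
Dusp1: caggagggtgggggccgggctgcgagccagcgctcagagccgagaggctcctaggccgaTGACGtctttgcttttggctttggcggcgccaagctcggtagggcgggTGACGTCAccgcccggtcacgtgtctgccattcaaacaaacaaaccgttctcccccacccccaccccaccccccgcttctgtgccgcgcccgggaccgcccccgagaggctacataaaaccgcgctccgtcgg
These matches describe the letters in the window and were not tied to any change reported here. Sites farther than 250 bases before the start, and the promoters of Ier2 and Egr1, were not searched, so a site absent here can lie outside the window.

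Libraries held 11160696 to 28838622 counts in batch A and 26511752 to 55473241 in batch C, so low genes were measured more precisely in batch C. Summed MEP markers (7 genes, among them Gata1, Klf1 and Tfrc) were 7706 to 11154 CPM (counts scaled to a common library total) in MEP and 600 to 3436 CPM in LSK libraries. Summed LSK markers (7, among them Ly6a, Kit and Cd34) were 170 to 1560 CPM in MEP and 1304 to 3312 CPM in LSK libraries. Jak2 itself was at 12.0 to 38.2 CPM over all groups, a count that does not tell the mutant allele from the normal one. At tamoxifen day 7 in LSK cells, replicate 4 stood at least 4-fold above all 3 other libraries for 198 of 9805 expressed genes, Junb and Ier2 among them, whereas replicates 1, 2 and 3 did so for 5, 3 and 0 genes. The median CPM of the other 196 genes, which include Klf1 and Map2k1, is given below as a measure of this split wherever Ier2 or Junb is described. Fewer cells of a type and less RNA per cell cannot be told apart in such bulk samples.

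The 10 genes differed widely in level. Levels are given as CPM of the raw library total, whereas fitted changes use TMM factors, which were 1.24 to 1.92 in MEP cells at day 7 and 0.943 to 1.18 in MEP vehicle A, so a fitted change can be smaller than the ratio of the CPM means. Per kilobase of transcript, LSK vehicle A averaged 35.6 CPM of Ier2, an early response gene induced by growth factors, 33.2 of Junb and 23.2 of Fos. Jun followed at 2.30, Atf3 (a stress-induced factor of the ATF and CREB family) at 1.51, Dusp1 (the phosphatase that switches MAP kinases off) at 1.28 and Egr1 at 0.791. Fosb at 0.488, Klf2 (a zinc-finger factor of quiescent lymphocytes and endothelium) at 0.344 and Jund at 0.318 CPM per kilobase closed the order. Neighbours in it overlapped between libraries at every step except from Fos to Jun. In MEP vehicle A the order began with Fos at 9.47 CPM per kilobase, Junb at 5.41 and Ier2 at 2.54, and ended with Fosb at 0.152, Klf2 at 0.134 and Egr1 at 0.109. Neighbours overlapped there except from Ier2 to Atf3, from Jun to Dusp1 and from Jund to Fosb. Klf2 was too low in MEP cells to be tested, at 0 to 0.896 CPM over the 16 libraries.

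**Figure D1:**
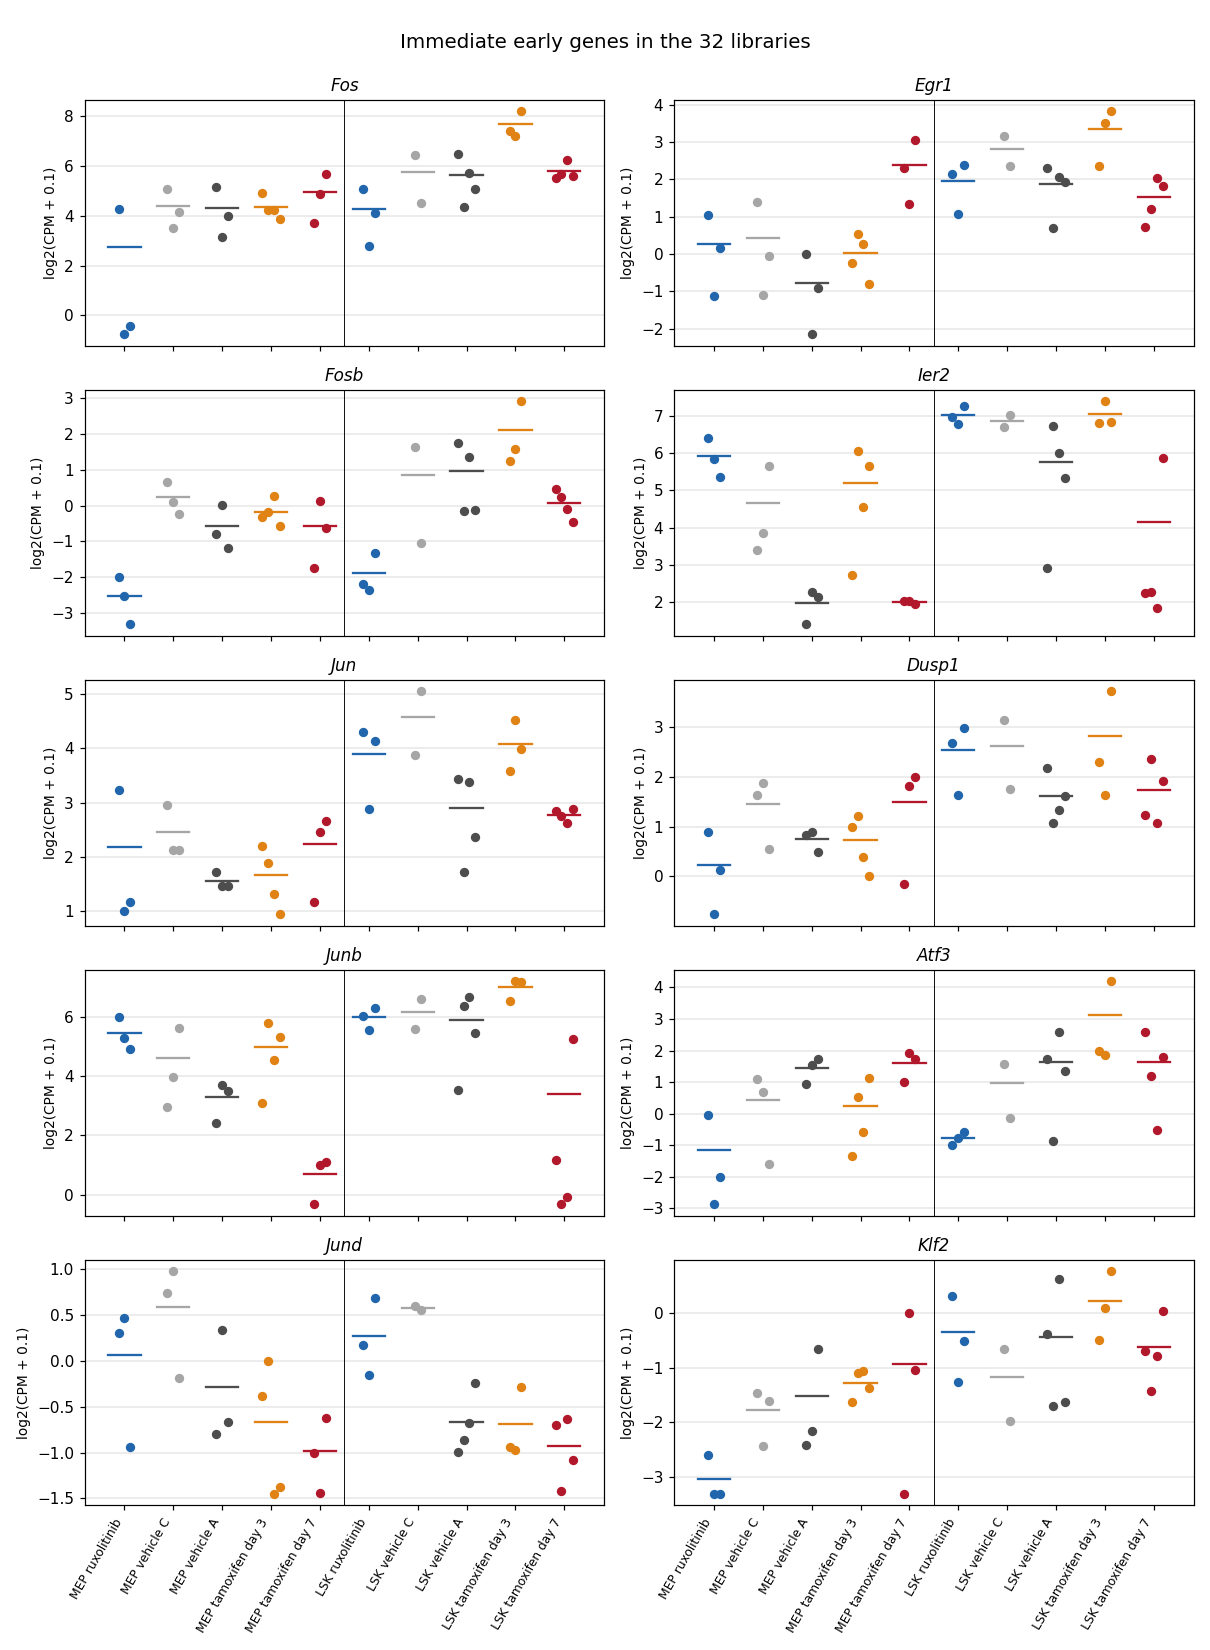
Level of each immediate early gene on the log2(CPM + 0.1) scale (y axes) in the 10 groups (x axes), with MEP groups left and LSK groups right of the vertical line; points are libraries and bars the log2 of the group mean. Ier2 lay between 2.55 and 4.77 CPM in the 3 MEP vehicle A libraries and between 10.5 and 50.2 CPM in the 3 MEP vehicle C libraries.

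Vehicle libraries showed first how far the genes moved between batches with no treatment. Vehicle C and vehicle A carry the same animal numbers, 12, 32 and 33 in MEP cells and 12 and 18 in LSK cells. Ier2 had 10.5, 14.4 and 50.2 CPM in MEP vehicle C, against 2.55, 4.77 and 4.29 CPM in MEP vehicle A. All vehicle C libraries lay above all vehicle A libraries. Of 16424 genes with a mean of at least 1 CPM over the libraries compared, 5.21% did so, and every such share below uses that minimum. The log2 change was 3.10 ± 0.60 (SE). Ier2 was the single one of 9 immediate early genes tested that passed (edgeR's quasi-likelihood test, Benjamini-Hochberg adjusted p = 0.00979; 3.52% of all genes passed). The median of the 196 genes of the split was 46.9 to 81.5 CPM in MEP vehicle C and 20.5 to 51.4 CPM in MEP vehicle A, and its part in the rise of Ier2 was not tested. Without MEP vehicle A replicate 3 the change of Ier2 was 3.25 and no longer passed, in a fit in which 21 genes passed in place of 889; over expressed genes alone it was 2.73 and did not pass either. Jun had 7.68, 4.26 and 4.29 CPM in MEP vehicle C and 3.20, 2.66 and 2.65 CPM in MEP vehicle A, with no overlap and a log2 change of 1.27 ± 0.58 that did not pass (edgeR adjusted p = 0.199).

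In LSK cells Jun had 14.6 and 33.3 CPM in vehicle C, against 10.7, 3.19, 10.3 and 5.08 CPM in vehicle A. The groups did not overlap, and Jun passed as the single one of 10 with a log2 change of 2.28 ± 0.47 (edgeR adjusted p = 0.0297; 0.772% of all genes passed). The call was lost with the replicate number as a block (log2 change 2.24, edgeR adjusted p = 0.179). It was lost as well without vehicle C replicate 2 (1.19), which held the higher of both vehicle C values. It was also lost without vehicle A replicate 1, 3 or 4 (2.49, 2.38 and 2.08). The count over all genes, 208, moved as far: it was 529 without vehicle C replicate 1, 0 without vehicle C replicate 2, and 5, 740, 5 and 2 without vehicle A replicate 1, 2, 3 or 4. Jund had 1.42 and 1.37 CPM in LSK vehicle C and 0.40, 0.451, 0.524 and 0.747 CPM in LSK vehicle A, a log2 change of 1.78 ± 0.57 that did not pass (edgeR adjusted p = 0.211). Ier2 had 104 and 129 CPM in LSK vehicle C, and 7.48, 105, 63.4 and 40.4 CPM in LSK vehicle A, where replicate 1 was low.

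Fos behaved differently between the batches. Animal 12 gave the highest vehicle value of Fos in all 4 sets: 33.6 CPM in MEP vehicle C and 35.3 in MEP vehicle A, 85.7 in LSK vehicle C and 88.8 in LSK vehicle A. Over the 5 animal and cell type pairs the ratio of vehicle C to vehicle A was 0.953 to 1.30 for Fos. The same ratio was 1.22 to 13.9 for Ier2, 1.36 to 10.4 for Jun, 1.18 to 4.43 for Junb, 1.81 to 3.27 for Egr1, 1.47 to 3.53 for Jund and 1.05 to 2.06 for Dusp1, above 1 in all 5 pairs for each. Fosb was higher in vehicle C in 3 of 3 MEP pairs and 0 of 2 LSK pairs (0.478 to 3.12), and Klf2 in 1 of 3 and 0 of 2 (0.428 to 3.03). Atf3 was higher in vehicle C in 2 of the 5 pairs, with ratios from 0.0703 to 1.81.

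**Figure D2:**
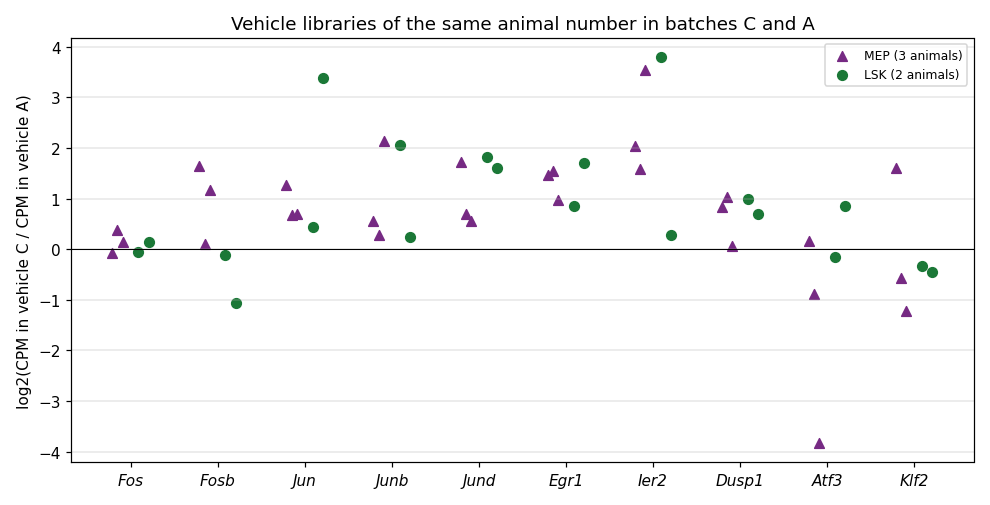
Log2 ratio of CPM in vehicle C to CPM in vehicle A (y axis) for each immediate early gene (x axis), 1 point per animal number, triangles for 3 MEP pairs and circles for 2 LSK pairs. The points of Fos lie between 0.953-fold and 1.30-fold, while those of Ier2 reach 13.9-fold.

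At tamoxifen day 3 Ier2 was higher in MEP cells. Ier2 had 6.54, 66.6, 23.2 and 50.4 CPM at tamoxifen day 3, against 2.55, 4.77 and 4.29 CPM in vehicle A. All 4 treated libraries were above all 3 vehicle libraries (7.41% of 18161 genes lay wholly higher), and the log2 change of 3.18 ± 0.58 passed (edgeR adjusted p = 0.00457), 1 of 9 genes tested where 1.21% of all genes passed. That change is of the size of the shift between vehicles (3.10 ± 0.60), and against vehicle C, at 10.5, 14.4 and 50.2 CPM, it was 0.08 (edgeR adjusted p = 0.923). The call was also lost without vehicle A replicate 1 (3.04) or replicate 3 (3.21). The median of the 196 split genes was 56.4 to 90.6 CPM at day 3 and 20.5 to 51.4 CPM in vehicle A. LSK markers summed to 717 to 821 CPM at day 3 and 285 to 532 CPM in vehicle A. Of these 7 markers 0 were called and their median log2 change was -0.098, so most of them did not share the higher sum. The part of the split genes or of these markers in the rise of Ier2 was not tested. Junb had 8.46, 55.7, 23.3 and 39.8 CPM at day 3 and 5.28, 12.9 and 11.2 CPM in vehicle A, a log2 change of 1.66 ± 0.55 that did not pass (edgeR adjusted p = 0.205). The 4 libraries ranked alike for Ier2 and Junb, with replicate 1 lowest and replicate 2 highest. Fos had 29.8, 18.5, 18.5 and 14.4 CPM at day 3 and 35.3, 8.64 and 16 CPM in vehicle A, within the vehicle range (log2 change -0.01 ± 0.77). The median change of the 9 genes was 0.13, against 0.00091 over all genes tested.

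**Figure D3:**
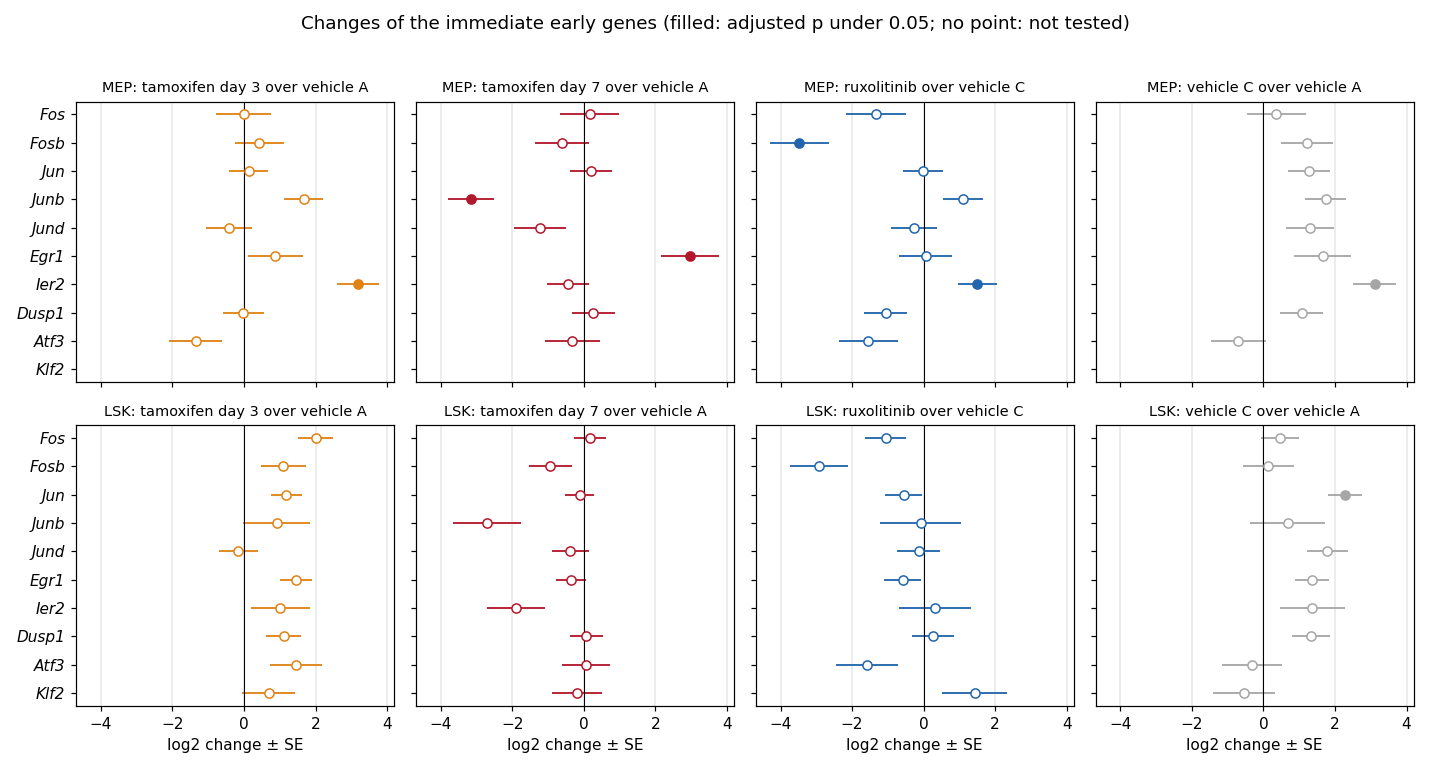
Fitted log2 change ± SE (x axes) of each immediate early gene (y axis) in MEP (top) and LSK cells (bottom), for tamoxifen day 3 and day 7 over vehicle A, ruxolitinib over vehicle C, and vehicle C over vehicle A. Filled points have an edgeR adjusted p under 0.05: 1, 2, 2 and 1 genes in MEP cells and 0, 0, 0 and 1 in LSK cells.

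At day 7 in MEP cells Junb fell and Egr1 rose. Junb had 0.696, 1.88 and 2.04 CPM at tamoxifen day 7, against 5.28, 12.9 and 11.2 CPM in vehicle A. Egr1 had 4.82, 2.42 and 8.15 CPM at day 7, against 0.908, 0.125 and 0.434 CPM in vehicle A, which are 21, 3 and 9 counts. Neither gene overlapped between the groups, where 33.9% of 20171 genes lay wholly higher and 8.97% wholly lower at day 7. They were 2 of 9 genes tested, where 8.42% of all genes passed, 1.38% as higher and 7.03% as lower (350 and 1778 genes, against 1237 and 1561 among expressed genes, those with a mean of at least 10 CPM). The log2 change was -3.14 ± 0.65 for Junb (edgeR adjusted p = 0.00177) and 2.97 ± 0.82 for Egr1 (edgeR adjusted p = 0.0205).

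Both changes depended on choices made in the fit. With an offset for GC content over expressed genes Junb was at -2.01 (edgeR adjusted p = 0.0515), and the median of the 196 split genes, which had a GC content of 53.6% together with Junb and Ier2, was 10.2 to 11.8 CPM at day 7 and 20.5 to 51.4 CPM in vehicle A. Egr1 against vehicle C, at 2.53, 0.364 and 0.857 CPM, was at 1.32 (edgeR adjusted p = 0.144). Its call was also lost without vehicle A replicate 2 (2.50) or 3 (2.81), or without day 7 replicate 3 (2.30). Of 7 MEP markers, 4 were called lower and 0 higher at day 7, where 7.03% of all genes were lower. Their median log2 change was -1.76, against -0.39 over expressed genes. Their sum was 10234.5 to 11154.3 CPM at day 7 and 7706 to 9901 CPM in vehicle A. Markers of other cells were also higher in sum at day 7. LSK markers summed to 1382 to 1560 CPM at day 7 and 285 to 532 CPM in vehicle A, and megakaryocyte markers (6 genes) to 360 to 668 CPM at day 7 and 74.7 to 103 CPM in vehicle A. Neutrophil and monocyte markers (9 genes) summed to 68.1 to 115 CPM at day 7 and 18.5 to 27.5 CPM in vehicle A. B and T cell markers (7 genes) summed to 20.4 to 37.2 CPM at day 7 and 7.87 to 10.7 CPM in vehicle A. Called higher were 3 of 7 LSK and 5 of 5 megakaryocyte markers tested, where 1.38% of all genes were. So were 2 of 9 neutrophil and monocyte markers, but 0 of 7 B and T cell markers. In the order of these lists the median log2 changes were 1.08, 2.10, 1.44 and 0.88. The part of these cells in the rise of Egr1 was not tested. Egr1 ran at 1.53 to 4.87 CPM in LSK vehicle A, so the day 7 MEP values lay within or above the LSK range.

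Ier2, in contrast to day 3, had 4.03, 4.03 and 3.80 CPM in MEP cells at day 7, within the 2.55 to 4.77 CPM of vehicle A (log2 change -0.43 ± 0.59). Against vehicle C the same libraries gave -3.53 (edgeR adjusted p = 0.000115), and with the GC offset the change turned to 0.52. Fos had 13.1, 29.5 and 51.1 CPM at day 7, a wide spread around the vehicle A values (log2 change 0.16 ± 0.82). Fosb, Jun, Jund, Dusp1 and Atf3 had log2 changes of -1.23 to 0.27, and none passed. The median of the 9 genes was -0.32, against 0.21 over all genes tested and -0.39 over expressed genes.

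In LSK cells at tamoxifen day 3 no gene of the whole table passed with edgeR (0% of 26930 genes), while 1019 genes and 4 of the 10 had an unadjusted p under 0.05; DESeq2 called 93 genes. Without vehicle A replicate 3, the vehicle library with the most macrophage markers, 88 genes passed with edgeR, none of the 10 among them. Of the 10, 9 had a positive log2 change, with a median of 1.10 against -0.02 over all genes tested. Between the untreated vehicles C and A the shift was of like size: 8 of 9 were positive in MEP cells, with a median of 1.27 against -0.27 over all genes, and 8 of 10 in LSK cells, with a median of 1.01 against -0.23. Fos had 168, 146 and 294 CPM at day 3, against 88.8, 20.5, 52.7 and 33.7 CPM in vehicle A. Every treated library was above every vehicle library, and the log2 change of 2.0 ± 0.49 had an edgeR adjusted p of 0.346; DESeq2 gave 1.96 with an adjusted p of 0.0472 and called no other of the 10. Leaving out single libraries left the change of Fos at 1.74 to 2.41, never past edgeR's threshold.

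Egr1, Jun and Ier2 also did not overlap between the groups, 4 of the 10 with Fos, where 1.83% of 21580 genes lay wholly higher at day 3. Jun, Jund and Egr1 lay wholly higher in LSK vehicle C than in vehicle A, with no treatment, where 5.64% of 20429 genes did. Jund is not among the genes of that share, because its mean was below 1 CPM. Egr1 had 5.03, 11.3 and 14.1 CPM at day 3, against 4.87, 1.53, 4.06 and 3.73 CPM in vehicle A (log2 change 1.45 ± 0.44, edgeR adjusted p = 0.620). Its shift between the vehicles C and A was of like size (1.36 ± 0.49), with 8.81 and 4.99 CPM in LSK vehicle C. Jun had 11.9, 23.0 and 15.7 CPM at day 3, against 10.7, 3.19, 10.3 and 5.08 CPM in vehicle A (log2 change 1.18 ± 0.43). The day 3 values of Jun lay below or within the range of LSK vehicle C, 14.6 and 33.3 CPM. Ier2 had 112, 168 and 113 CPM at day 3 and Junb 93.1, 149 and 145 CPM. Jund alone of the 10 had a negative change (-0.16 ± 0.55).

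Macrophage markers moved with this group. The 6 of 7 markers listed in the table, Vcam1, C1qa, C1qb, C1qc, Cd5l and Mrc1, were all above 0 in every LSK library. They summed to 2171, 1306 and 10306 CPM at day 3, against 156, 68.1, 3643 and 109 CPM in vehicle A, and to 20.1 to 281 CPM in the other LSK groups. Replicate 3 at day 3, the highest for macrophage markers, was also highest for Fos (294 CPM), Fosb (7.49), Egr1 (14.1), Dusp1 (13.2), Atf3 (18.4) and Klf2 (1.61). Without it the change of Fos was 1.74. In vehicle A, replicate 3 had 3643 CPM of macrophage markers and was the highest of its group for Junb (103 CPM), Atf3 (5.89) and Klf2 (1.44). It had 52.7 CPM of Fos, while replicate 1 had 156 CPM of the markers and 88.8 CPM of Fos. Replicate 1 was also the highest of vehicle A for Fosb, Jun, Egr1 and Dusp1. MEP markers were also higher at day 3 in LSK cells, 2107 to 3436 CPM against 781 to 1921 CPM in vehicle A. The part of these cells in the values of the 10 genes was not tested.

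**Figure D4:**
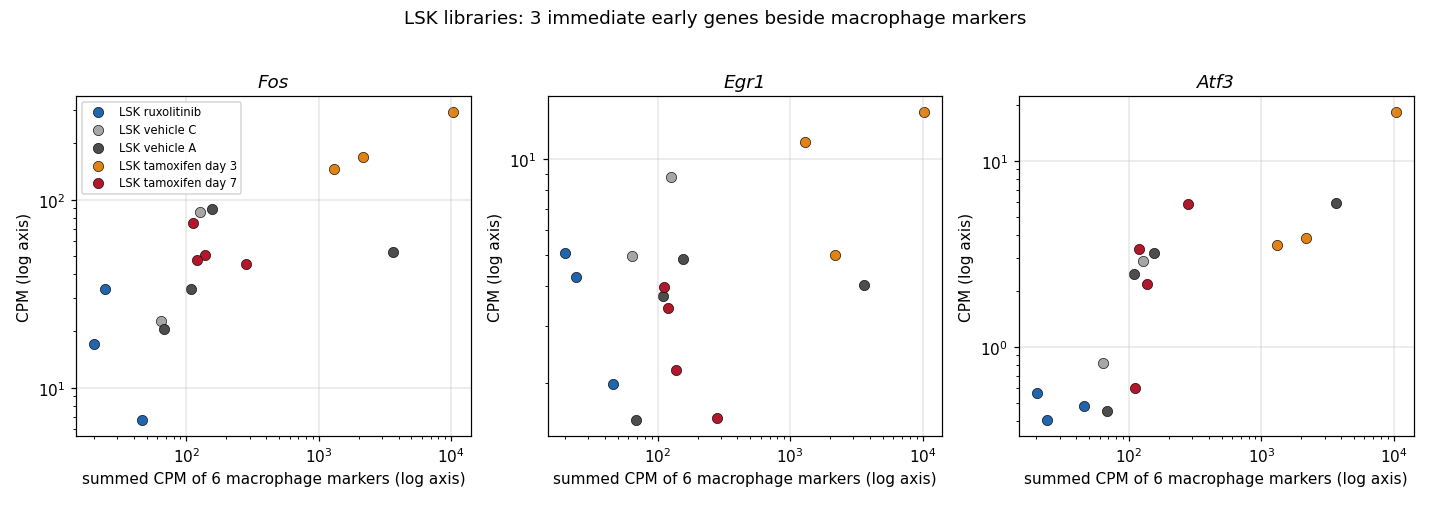
CPM of Fos, Egr1 and Atf3 (y axes, log) against the summed CPM of 6 macrophage markers (x axes, log) in the 16 LSK libraries, coloured by group. The 3 tamoxifen day 3 libraries have 1306 to 10306 CPM of the markers and 146 to 294 CPM of Fos, above every other LSK library for Fos.

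At day 7 in LSK cells the libraries of the group parted for Junb and Ier2. Junb had 2.13, 0.71, 0.844 and 38.5 CPM at day 7, against 11.6, 82.6, 103 and 43.8 CPM in vehicle A. Ier2 had 4.67, 4.70, 3.50 and 58.1 CPM at day 7, against 7.48, 105, 63.4 and 40.4 CPM in vehicle A. For both genes 3 libraries lay below every vehicle library and replicate 4 within the vehicle range. None of the 10 passed, where 0.104% of all genes did (2405 genes and 2 of the 10 at an unadjusted p under 0.05; DESeq2 called 334 genes and none of the 7 of the 10 it tested). The log2 change was -2.71 ± 0.94 for Junb (edgeR adjusted p = 0.281) and -1.90 ± 0.80 for Ier2 (edgeR adjusted p = 0.442). Without replicate 4 they were -5.73 (edgeR adjusted p = 0.000105) and -3.88 (edgeR adjusted p = 0.00163), and 911 genes passed in place of 28.

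The 196 other genes that set replicate 4 apart had a median of 82.0 CPM in that library and 9.56 to 12.1 CPM in the other 3. This gap was set by the choice, because they were picked for standing at least 4-fold higher in replicate 4. Ier2 and Junb met the same rule and Fos did not. In the MEP library of the same animal number as replicate 4 the 196 genes had a median of 10.2 CPM, with 3.80 CPM of Ier2 and 2.04 CPM of Junb. Over all 32 libraries, those used for the choice among them, Ier2 had at most 10.5 CPM wherever that median was at or below 56.4 CPM. It had at least 14.4 CPM in every other library. Fos had no such relation: its day 7 values were 45.7, 50.6, 74.7 and 48.0 CPM, against 88.8, 20.5, 52.7 and 33.7 CPM in vehicle A (log2 change 0.16 ± 0.45). Jun was at 6.09 to 7.27 CPM at day 7 and 3.19 to 10.7 CPM in vehicle A. Neutrophil and monocyte markers summed to 324 to 549 CPM at day 7 and 104 to 258 CPM in vehicle A. MEP markers (1 of 7 called lower, median log2 change -1.89) summed to 664 to 1071 CPM at day 7 and 781 to 1921 CPM in vehicle A. The part of either list in these values was not tested.

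**Figure D5:**
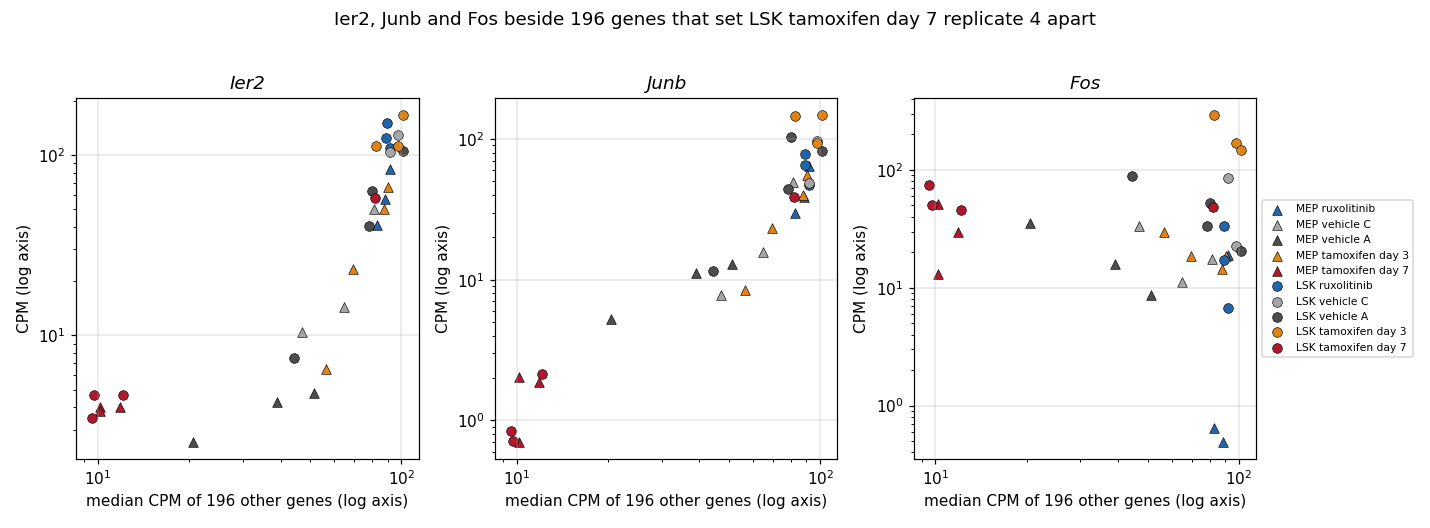
CPM of Ier2, Junb and Fos (y axes, log) against the median CPM of 196 other genes that set LSK tamoxifen day 7 replicate 4 apart (x axes, log), 1 point per library, triangles MEP and circles LSK. Ier2 and Junb climb with the median over the 32 libraries, from under 5 CPM where it is 9.56 to 12.1 CPM, and Fos does not. The 196 genes were picked by a rule that Ier2 and Junb also met in the LSK tamoxifen day 7 libraries and Fos did not.

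Ruxolitinib came with less Fosb and more Ier2 in MEP cells. Fosb had 0.152, 0.0721 and 0 CPM under ruxolitinib (7, 4 and 0 counts), against 1.48, 0.981 and 0.756 CPM in vehicle C (51, 35 and 30 counts). The groups did not overlap, nor did those of Klf2 (0.0654, 0 and 0 CPM under ruxolitinib and 0.262, 0.0841 and 0.227 CPM in vehicle C). Of 12300 genes with a mean of at least 1 CPM, 26.8% lay wholly lower. Fosb and Klf2 were below that mean, so the share describes genes of higher level than these. The log2 change of Fosb, -3.47 ± 0.82, passed (edgeR adjusted p = 0.00214), in a comparison in which 42% of all genes passed, 38.5% as lower, and the median change over all genes tested was -1.07 (-0.93 with RLE scaling). Over expressed genes the median change was 0.12, so the broad fall lay among low genes, and Fosb is itself below the level of expressed genes. Fosb passed in every fit that tested it, against vehicle A included (-2.25). Ier2 had 83.7, 57.5 and 40.7 CPM under ruxolitinib, against 10.5, 14.4 and 50.2 CPM in vehicle C, where replicate 3 overlapped. Its log2 change was 1.5 ± 0.55 (edgeR adjusted p = 0.0315; 3.43% of all genes passed as higher). That call was lost with DESeq2 (1.51), over expressed genes alone (1.39), with the GC offset (0.89) and without 4 of the 6 libraries in turn (1.07 to 1.44). The 196 split genes had a median of 82.8 to 91.7 CPM under ruxolitinib and 46.9 to 81.5 CPM in vehicle C.

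The MEP ruxolitinib libraries differed among themselves for Fos. Fos had 18.9, 0.487 and 0.646 CPM under ruxolitinib, against 33.6, 11.2 and 17.6 CPM in vehicle C. Replicate 1 lay within the vehicle range and the other 2 lay far below it, and the log2 change of -1.33 ± 0.84 did not pass (edgeR adjusted p = 0.208). Replicate 1 was likewise the highest of the 3 for Jun (9.24, 1.89 and 2.14 CPM), Atf3 (0.871, 0.0361 and 0.149 CPM), Egr1 and Dusp1. Without it the changes were -5.02 for Fos, -3.56 for Atf3 and -1.64 for Dusp1, and all 3 passed with Fosb and Klf2, which was tested in that fit. Megakaryocyte markers summed to 148 to 288 CPM under ruxolitinib and 29.2 to 68.6 CPM in vehicle C, and macrophage markers to 3.80 to 7.82 CPM under ruxolitinib and 3.73 to 8.21 CPM in vehicle C. Neutrophil and monocyte markers (5 of 9 called lower, median log2 change -1.82) summed to 3.33 to 5.97 CPM under ruxolitinib and 3.45 to 13.1 CPM in vehicle C. B and T cell markers (4 of 7 called lower and 1 higher, median -2.18) summed to 4.29 to 4.98 CPM under ruxolitinib and 1.84 to 7.14 CPM in vehicle C. Of all genes, 38.5% were called lower and 3.43% higher in this comparison, with a median log2 change of -1.07 over all genes tested and 0.12 over expressed genes. The part of these markers in the values was not tested.

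In LSK cells under ruxolitinib none of the 10 passed, where 0.0223% of all genes did (2402 genes and 1 of the 10 at an unadjusted p under 0.05; DESeq2 called 132 genes and none of the 10). Fosb had 0.121, 0.0967 and 0.302 CPM under ruxolitinib, against 3.01 and 0.382 CPM in vehicle C. All treated libraries were below both vehicle libraries, with a log2 change of -2.93 ± 0.80 (edgeR adjusted p = 0.434). Atf3 had 0.403, 0.484 and 0.566 CPM under ruxolitinib and 2.90 and 0.814 CPM in vehicle C, again without overlap (-1.59 ± 0.87). These were 2 of the 10 wholly lower, where 12.3% of 15901 genes were. Fosb is not among the genes of that share, because its mean was below 1 CPM. Fos had 33.3, 6.70 and 17.1 CPM under ruxolitinib and 85.7 and 22.7 CPM in vehicle C, with replicate 1 within the vehicle range as in MEP cells (-1.06 ± 0.57). Macrophage markers summed to 20.1 to 45.9 CPM under ruxolitinib and 63.7 to 127 CPM in vehicle C. Jun (-0.56) and Jund (-0.14) turned to 1.72 and 1.64 against vehicle A, each past the threshold (edgeR adjusted p = 0.0103 and 0.0244).

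Between the cell types most of the 10 were lower in MEP cells. Over 10 pairs of libraries with the same animal number, group and batch, MEP was lower than LSK in 10 for Ier2 and Jun, 9 for Fos, Fosb, Junb, Dusp1 and Klf2, 8 for Atf3, 7 for Egr1 and 4 for Jund. In vehicle A, Ier2 had 2.55, 4.77 and 4.29 CPM in MEP and 7.48, 105, 63.4 and 40.4 CPM in LSK, and Egr1 had 0.908, 0.125 and 0.434 CPM in MEP and 4.87, 1.53, 4.06 and 3.73 CPM in LSK. Neither overlapped, nor did Dusp1 (1.69, 1.74 and 1.30 CPM in MEP and 4.41, 2.01, 2.42 and 2.99 CPM in LSK), where 21.6% of 20336 genes lay wholly lower in MEP. Ier2 and Egr1, 2 of the 10, passed as lower in MEP, by log2 changes of -3.63 ± 0.90 and -2.30 ± 0.69 (edgeR adjusted p = 0.00327 and 0.0163; 17.4% of all genes passed, 8.71% as lower). Egr1 did not pass without MEP vehicle A replicate 2 (-1.83) or 3 (-2.12). In vehicle C, Jun passed as lower in MEP, with 7.68, 4.26 and 4.29 CPM in MEP and 14.6 and 33.3 CPM in LSK (-1.77 ± 0.60, edgeR adjusted p = 0.0399; 16.6% of all genes passed). Jun, Egr1 and Ier2 lay wholly lower in MEP there, as 30.4% of 16014 genes did. That call was lost without LSK vehicle C replicate 2 (-0.69) or MEP vehicle C replicate 2 (-1.55) or 3 (-1.75).

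Tests of the difference in response, MEP minus LSK, called none of the 10 for tamoxifen day 3, day 7 or ruxolitinib, where 0.0529%, 0.458% and 0.292% of all genes passed with edgeR. At an unadjusted p under 0.05 there was 1 of the 10 in each of the 3, beside 997, 3191 and 4262 genes. Egr1 at day 7 had the difference 3.19 ± 0.91 (edgeR adjusted p = 0.117); DESeq2, which tested 7, 6 and 9 of the 10 in the 3 comparisons, gave 3.42 and called it, and called none of the others it tested. Atf3 at day 3 had -2.73 ± 1.06 and Klf2 under ruxolitinib -4.04 ± 1.53, where Klf2 was at 0 in 2 of the 3 MEP ruxolitinib libraries.

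Other genes of the same response were counted by list. Of 33 other immediate early genes tested in MEP cells, 2 were higher and 10 lower under ruxolitinib (3.43% and 38.5% of all genes were). The larger falls were Plk2, a stress-induced kinase, at 0.245 ± 0.167 CPM under ruxolitinib and 22.3 ± 34.5 CPM in vehicle C (SD, n = 3 each; log2 change -6.24 ± 1.16), and Cyr61, a matrix protein, at 0.0145 ± 0.0252 CPM under ruxolitinib and 1.02 ± 0.740 CPM in vehicle C (-5.63 ± 0.95). Nr4a3, an orphan nuclear receptor, was at 0.0336 ± 0.0178 CPM under ruxolitinib and 1.02 ± 0.689 CPM in vehicle C (-4.49 ± 0.73), and Ptgs2, the prostaglandin synthase COX-2, was at 0.0263 ± 0.0271 CPM under ruxolitinib and 0.350 ± 0.280 CPM in vehicle C (-3.26 ± 0.86). At day 7 in MEP cells 2 of the 33 were higher and 2 lower (1.38% and 7.03% of all genes were). Klf10 rose to 181 ± 19.6 CPM at day 7, against 67.1 ± 19.4 CPM in vehicle A (log2 change 0.94 ± 0.28), and Nfkbia, the inhibitor of NF-kB, fell to 17.7 ± 2.52 CPM, against 33.8 ± 13.8 CPM in vehicle A (-1.42 ± 0.36). Zfp36l2, an mRNA decay factor, rose by 1.15 ± 0.34, and Gadd45g was the other gene that fell.

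Gadd45g, a growth arrest gene induced by cytokines and stress, was called lower in 3 of the 6 treatment comparisons; its ruxolitinib values were singled out after they were seen. It averaged 13.2 ± 2.20 CPM in MEP cells at day 7 and 36.5 ± 15.2 CPM in MEP vehicle A (SD, n = 3 each; log2 change -1.95 ± 0.36, edgeR adjusted p = 0.000503). In MEP cells under ruxolitinib it averaged 11.3 ± 1.96 CPM, against 36.0 ± 14.0 CPM in vehicle C (-1.42 ± 0.35, edgeR adjusted p = 0.00299). In LSK cells at day 7 it averaged 8.98 ± 2.20 CPM, against 23.6 ± 4.88 CPM in vehicle A (SD, n = 4 each; -1.45 ± 0.27, edgeR adjusted p = 0.0417), the single call among the 35 tested there. Of all genes, 0.104% passed in LSK cells at day 7. Gadd45g shifted little between vehicles, by 0.27 ± 0.34 in MEP and -0.08 ± 0.32 in LSK cells. None of the 35 passed in LSK cells at day 3 or under ruxolitinib, nor any of the 33 in MEP cells at day 3.

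Among 14 AP-1 and bZIP partners, Mafk (a small Maf protein of erythroid cells) and Atf4 (the amino acid stress factor) fell in MEP cells at day 7, by log2 changes of -3.10 ± 0.31 and -1.39 ± 0.25. Of all genes, 7.03% were lower there. Batf3 (-2.31 ± 0.77) and Atf7 (-0.66 ± 0.24), 2 of the 14, were lower in MEP cells under ruxolitinib, where 38.5% of all genes were. Among 21 upstream regulators, Map2k1, the MAP kinase kinase MEK1, was higher in MEP cells at day 3 (1.92 ± 0.39), where 1.21% of all genes passed. It was as much higher in MEP vehicle C than in vehicle A (1.84 ± 0.40), together with Mapk14, Map2k2 and Map2k4. Between these vehicles 3.52% of all genes passed. At day 7 Mef2c was higher (1.33 ± 0.40) and Mapk9 (-0.78 ± 0.23) and Map2k7 (-1.42 ± 0.34) were lower in MEP cells (1.38% and 7.03% of all genes). Among 14 heat shock genes that cell dissociation induces, 6 were lower in MEP cells at day 7, where 7.03% of all genes were, with the chaperone partner Dnajb1 at 26.4 ± 3.67 CPM, against 165 ± 64.6 CPM in vehicle A (-3.13 ± 0.28). Bag3 (-2.21 ± 0.31) and Hsph1 (-1.51 ± 0.32) were among the 6. The 14 had a median log2 change of -0.79 at day 7, against -0.39 over expressed genes and 0.21 over all genes tested. Hspe1 was lower at day 3 (-0.83 ± 0.21), where 1.21% of all genes passed. Hspa1a (2.49 ± 0.92) and Hspa1b (2.17 ± 0.78) were higher under ruxolitinib, where 3.43% of all genes were. They are near-identical copies whose reads can be split between them. None of these 3 lists had a call in LSK cells in a treatment comparison.

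The genes most like the 10 in their pattern over libraries were sought by Pearson's r with the mean standardised log2(CPM + 1), as a description over 16 libraries that share groups and batches. In LSK cells these were Il18bp (0.86), Picalm, Ubxn2a, Tnk2 and Cd302 (0.80), and in MEP cells Fam160b2 (0.68), Klf6, itself an immediate early gene, Bcor, Zcchc2 and Smchd1 (0.60). Taken singly the 10 differed: 435 of 8158 expressed genes in MEP cells and 625 of 9801 in LSK cells had an r over 0.8 with Ier2, and 563 and 708 with Junb. With Fos 8 genes in MEP cells and 15 in LSK cells did. Ier2 and Junb had an r of 0.90 with each other in MEP and 0.95 in LSK cells, Fos and Fosb 0.86 in LSK cells, and Fos and Ier2 -0.11 there.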

How the data were processed

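The deposited table gives the authors' raw counts of reads per gene; reads had been aligned to mm10 by STAR and counted by featureCounts, per the submitters' processing notes, which carry no versions. Per the labels' protocols, sorted cells went into TriZOL, RNA was purified with a Direct-Zol kit and libraries were made with a Takara HT-Seq kit. No source used here gives a strand setting, so overlapping and antisense reads cannot be told apart. All 32 libraries were grouped from their labels, and over 37 pairs within groups the lowest chi-square per degree of freedom was 10.8, so none was counted as a copy. Labels number the animals, and p-values measure the spread between these samples. Number 18 occurs in LSK vehicle A and vehicle C and also at tamoxifen day 7 in both cell types. Whether it marks the same animal is not stated. The main fits treated all libraries as independent, also those that share an animal number across cell types or vehicles.

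The main test was the quasi-likelihood test of edgeR 4.0.16 (R 4.3.3; TMM factors, a count minimum of 10 in filterByExpr, Benjamini-Hochberg adjustment over all genes, threshold 0.05), fitted per cell type (26930 genes in LSK, 25274 in MEP) or over both (28378). The alternatives tried were DESeq2 1.42.0, RLE factors, leaving out the count filter, expressed genes only (mean of at least 10 CPM), a GC offset, the vehicle of the other batch, a replicate block (limma 3.58.1 with voom across cell types) and leaving out each library; a fit without the 2 LSK vehicle A libraries whose names end in r was added after seeing the data. The scripts were tested on simulated data. Vehicle C and vehicle A share animal numbers in the labels, and the deviations of same-numbered libraries from their group means had correlations of 0.54 and 0.66 in LSK and 0.69, 0.63 and 0.31 in MEP cells. The members and the lists were chosen with earlier results of these data known. The text names all 10 genes and, per list and comparison, up to 4 called genes with the largest log2 change. Likeness was sought among genes with a mean of at least 10 CPM, against members with at least 1 CPM.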

Additional observations from a re-analysis of the deposited data

Results flagged for a closer look

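Of 30 sets, each of a gene in a group of 4 libraries, 3 held a library with a large gap to the nearest of the others. The gap was judged against the set's whole range by Dixon's 95% critical value. Chance passes that value in about 1 in 20 independent sets, but sets here share libraries. All 3 flagged sets lay in LSK cells at tamoxifen day 7. Replicate 4 had 58.1 CPM of Ier2, against 3.50 to 4.70 CPM in the other libraries, and 38.5 CPM of Junb, against 0.71 to 2.13 CPM. Replicate 3 had 74.7 CPM of Fos, against 45.7 to 50.6 CPM in the others.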

How the results depend on the processing

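Of 126 changes (a gene in a comparison), 31 passed under at least 1 setting; of the other 95, 53 changed sign under some setting. The number of the immediate early genes that passed moved as follows. With DESeq2, which tested 4 to 10 of the 10, it was 1 in LSK at day 3, 2 between LSK vehicles, 1 in MEP under ruxolitinib, 2 for MEP against LSK in vehicle C and 1 for the day 7 difference in response. With RLE factors or no count filter it was 2 for MEP against LSK in vehicle C, and with no filter 2 between MEP vehicles. Over expressed genes only it was 1 in MEP at day 7 and 0 in MEP under ruxolitinib, between MEP vehicles, between LSK vehicles and for MEP against LSK in vehicle C; with the GC offset it was 0 in all 5. Both settings leave low genes such as Fosb and Egr1 in MEP untested. With the vehicle of the other batch it was 4 in LSK at day 7, 4 in LSK under ruxolitinib, 0 in MEP at day 3 and 4 in MEP under ruxolitinib. That vehicle turned Jun and Jund in LSK under ruxolitinib to 1.72 and 1.64 and Dusp1 in MEP under ruxolitinib to 0.0089, and the GC offset turned Ier2 in MEP at day 7 to 0.52. The cause was not tested. Without the 2 libraries marked r it was 0 between LSK vehicles.

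With the replicate number as a block it was 0 between LSK vehicles and 4 in MEP under ruxolitinib, where the numbers do not mark the same animals and Fos (-2.13) and Junb (1.52) passed as well; the animal block gave 2 for MEP against LSK in vehicle C. The block changed no other count of these genes. Leaving out single libraries gave 0 to 1 between LSK vehicles, 0 to 2 in LSK at day 7, 0 to 1 in MEP at day 3, 1 to 2 in MEP at day 7, 1 to 5 in MEP under ruxolitinib, 0 to 2 between MEP vehicles, 1 to 3 for MEP against LSK in vehicle A and 0 to 2 in vehicle C. It moved Jun (-1.05 to 0.54), Jund (-0.27 to 0.13) and Dusp1 (-0.12 to 0.87) in LSK under ruxolitinib and Jun in LSK at day 7 (-0.29 to 0.091) across 0.

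Counts over all genes moved more. In MEP under ruxolitinib 10605 genes passed, against 1123 over expressed genes, 1166 with the GC offset and 16369 with vehicle A; at day 7, 2128, against 10977 with vehicle C; at day 3, 306, against 682 with DESeq2, 773 over expressed genes, 918 with the GC offset, 1631 with vehicle C and 201 with the block; between vehicles 889, against 3589 with DESeq2, 136 and 206. In LSK at day 7, 28 genes passed, against 334 with DESeq2, 54 with no filter, 66, 101, 1347 with vehicle C, 230 with the block and 18 without the libraries marked r; under ruxolitinib 6, against 132 with DESeq2, 14 with no filter, 12 with the GC offset and 10133 with vehicle A; between vehicles 208, against 765 with DESeq2, 4 with the block and 67 without the libraries marked r; at day 3, 0, against 60 with vehicle C. Leaving out single libraries gave 0 to 88 genes in LSK at day 3, 2 to 911 at day 7, 2 to 4 under ruxolitinib and 0 to 740 between vehicles, and 98 to 383 in MEP at day 3, 1313 to 2093 at day 7, 7068 to 12024 under ruxolitinib and 21 to 1425 between vehicles. The shallower libraries leave Fosb, Jund, Egr1 and Klf2 at a few reads in several MEP libraries.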
